A study of Mus musculus with 24 samples.

Results

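The stromal adipocyte progenitor genes followed here, by symbol, in epididymal white adipose tissue (eWAT) were Pdgfra, Pdgfrb, Pi16, Dpp4, Ly6a, Cd34, Dcn and Lum. They are 8 of the 16730 genes in the count table, and 8 of 8 passed the filter of at least 1 CPM (read counts scaled to the library total) in at least 3 libraries, which kept 15020 genes. RNA from 24 male mice was sequenced from the 3′ end of the transcripts (QuantSeq), with 1 library per mouse and 6 mice in each of 4 groups, and the question was how diet and the loss of laminin α4 from adipocytes change this fat depot. Lama4 fl/fl mice carry Lama4 alleles with loxP sites around exon 3 and no Cre. Lama4 AKO mice carry the same floxed alleles and Cre driven by the adiponectin promoter, which is active in adipocytes, so the stromal cells that these 8 genes mark were not the cells aimed at by the deletion. All mice were on a C57BL/6J background, the fl/fl mice were littermates, and each genotype was fed LabDiet 5015 chow or a 45% fat diet (HFD) for 20 weeks and was 24 to 26 weeks old at collection. The groups are called chow fl/fl, chow AKO, HFD fl/fl and HFD AKO.

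The members lie apart in the genome except for Dcn and Lum. On the GRCm38 reference, Pdgfra (ENSMUSG00000029231) spans chr5:75152292-75198215 on the plus strand, Pdgfrb (ENSMUSG00000024620) chr18:61045150-61085061 on the plus strand, Pi16 (ENSMUSG00000024011) chr17:29317680-29330593 on the plus strand and Dpp4 (ENSMUSG00000035000) chr2:62330073-62412231 on the minus strand. Ly6a (ENSMUSG00000075602) spans chr15:74994877-74998031 on the minus strand, Cd34 (ENSMUSG00000016494) chr1:194938819-194961279 on the plus strand, Dcn (ENSMUSG00000019929) chr10:97479609-97518143 on the plus strand and Lum (ENSMUSG00000036446) chr10:97565128-97572703 on the plus strand. Dcn and Lum follow each other on the same strand with 46984 bases between them. GENCODE annotates antisense transcripts over Pdgfra, Pi16, Dpp4 and Cd34, and whether the counting used the strand is not given in the sources used here, so reads of these genes and of their antisense partners cannot be told apart. Ly6a has close relatives in the Ly6 family, and its counts are uncertain where reads fit more than 1 of them.

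Adipocyte progenitors are fibroblast-like cells in the stroma around vessels and in the connective tissue between adipocytes, and they carry the platelet-derived growth factor (PDGF) receptor α. In the current picture, cells with Dpp4 and Pi16 sit in the interstitium as an early state that gives rise to committed preadipocytes, while Ly6a (Sca-1) and Cd34 are surface proteins long used to sort progenitors, and both are also carried by endothelial or blood-derived cells. Dcn and Lum encode decorin and lumican, small leucine-rich proteoglycans that bind collagen fibrils, and Pdgfrb, the receptor β, is shared by progenitors and by the mural cells of vessels. In bulk tissue, fewer cells of a type and less RNA per cell cannot be told apart.

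Promoter sequences from RefSeq on GRCm38.p6, 250 bases before to 50 bases after the start of the transcript, matched 4 members: Pdgfra, Pi16 and Cd34, each of which was called between diets in at least 1 of the fits that follow, and Dpp4, which is known for the same cells as Pi16. The windows are shown so that the RefSeq starts of these genes can be compared, 5′ to 3′ on the strand of the gene, in lower case with matches to 5 searched motifs in capitals. These starts need not be those of the gene spans above. The Pi16 window lies inside its span, which begins at 29317680. The Pdgfra span begins at 75152292, near the end of its window, and the bases after the RefSeq start were not all in a GENCODE transcript of the gene.
Pdgfra, chr5:75152001-75152300, plus strand: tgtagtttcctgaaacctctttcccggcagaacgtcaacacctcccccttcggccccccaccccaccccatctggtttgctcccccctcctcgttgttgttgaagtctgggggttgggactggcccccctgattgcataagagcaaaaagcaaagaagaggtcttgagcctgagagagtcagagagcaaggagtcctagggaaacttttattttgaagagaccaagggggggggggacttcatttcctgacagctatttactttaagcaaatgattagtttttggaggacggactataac
Pi16, chr17:29318632-29318931, plus strand: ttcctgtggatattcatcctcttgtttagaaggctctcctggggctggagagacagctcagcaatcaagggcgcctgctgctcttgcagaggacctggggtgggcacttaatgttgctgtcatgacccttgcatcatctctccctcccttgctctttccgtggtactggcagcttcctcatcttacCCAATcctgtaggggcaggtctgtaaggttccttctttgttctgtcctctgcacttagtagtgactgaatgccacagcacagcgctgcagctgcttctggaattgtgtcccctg
Dpp4, chr2:62412182-62412481, minus strand: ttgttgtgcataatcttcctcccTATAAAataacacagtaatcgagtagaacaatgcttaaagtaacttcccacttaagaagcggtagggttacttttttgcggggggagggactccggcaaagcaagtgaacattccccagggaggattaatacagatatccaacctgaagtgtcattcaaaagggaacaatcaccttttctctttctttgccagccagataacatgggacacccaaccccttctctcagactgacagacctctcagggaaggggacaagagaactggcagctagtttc
Cd34, chr1:194938571-194938870, plus strand: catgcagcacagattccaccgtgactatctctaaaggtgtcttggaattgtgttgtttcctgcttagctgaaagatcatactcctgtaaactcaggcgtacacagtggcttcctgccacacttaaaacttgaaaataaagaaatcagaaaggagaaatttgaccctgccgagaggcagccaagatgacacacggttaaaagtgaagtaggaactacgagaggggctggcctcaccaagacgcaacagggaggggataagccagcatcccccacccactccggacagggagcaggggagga
The motifs were the GC box (GGGCGG), the CCAAT box (CCAAT), the TATA box (TATAAA), an AP-1 site (TGAGTCA) and an E-box (CACGTG), searched on both strands, and no 2 matches overlapped. Among 32851 promoters of this length, 35.7% held the GC box, 37.4% the CCAAT box, 13.6% the TATA box, 5.2% the AP-1 site and 7.15% the E-box. Pi16 held 1 CCAAT box, which starts 64 bases before the RefSeq start inside its gene span. Dpp4 held 1 TATAAA, which starts 227 bases before its RefSeq start. The windows of Pdgfra and Cd34 held none of these letters. The share of G and C was 51.0% for Pdgfra, 53.3% for Pi16, 45.3% for Dpp4 and 50.0% for Cd34, beside a median of 52.7% over all promoters.

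Library totals ran from 5579590 to 18764516 counts. Lama4 checks the genotype labels, and in chow-fed mice it had 6.69 ± 0.40 log2 CPM (SD, n = 6) with the AKO label and 6.46 ± 0.76 log2 CPM (SD, n = 6) with the fl/fl label, so it was not lower where the deletion was labelled (log2 fold change 0.11, adjusted p = 0.980 from edgeR). On HFD the values were 5.61 ± 0.47 (SD, n = 6) and 6.19 ± 0.82 (SD, n = 6; log2 fold change −0.69, adjusted p = 0.347 from edgeR). By quantitative PCR the study reported a knockdown of Lama4 in eWAT and inguinal fat of chow-fed AKO mice. Reads lie at the 3′ end of Lama4, away from exon 3, so the counts check the labels in part only, and each direction between genotypes below follows the labels. An earlier analysis of these counts took 5 libraries as the mice that the study set aside as outliers, which is an inference. On the first principal component of all genes, HFD fl/fl replicates 3, 4 and 6 were at −9.88, −76.1 and −60.4 where the rest of their group lay between 48.2 and 73.5, chow fl/fl replicate 3 was at 46.8 where its group otherwise lay between −91.8 and 6.18, and chow AKO replicate 5 was at 22.1 where its group otherwise lay between −74.8 and 2.95. They were not the only libraries far from their groups: HFD AKO replicate 6 was at 0.850 where the other 5 lay between 47.2 and 61.5, and chow fl/fl replicate 1 was the one at −91.8, with the next at −22.1. The values of this component shift with diet, though the diets overlap on it, so leaving these 5 out is not independent of the outcome, and the fits to all 24 libraries come first, with the values without the 5 beside them where a call or a count of list genes changed.

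Levels are CPM scaled with TMM factors. A gene was called where it differed 1.5-fold or more with a nominal p of 0.001 or less in edgeR's quasi-likelihood test and averaged 2 CPM or more in its higher group. Adjusted p-values are those of Benjamini and Hochberg for the 15020 genes tested. The 95% intervals were built from the SE of the log2 fold change with the residual degrees of freedom only. They are somewhat wider than edgeR's test implies and can take in 0 where the unadjusted p is under 0.05. Group means of log2 CPM were also compared with two-sided exact permutation tests of 6 against 6 libraries, 40 tests in all for the 8 members and 5 pairs of groups, of which 10 had an unadjusted p of at most 0.05. The smallest p they can give is 0.00216.

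High-fat feeding in the AKO mice gave the one call among the members. Pdgfra, the receptor that defines progenitors in most schemes, rose to 1.61 times its chow level. Lum, Pi16, Ly6a and Cd34 lay between 1.40 and 1.98 times their chow level without passing the call, and Dpp4 lay at 0.747. Of the 8 members, 1 was called, where 4.12% of all genes tested were called, 1.29% of them higher. The median log2 fold change of the members was 0.50, beside −0.0031 over all genes, and 7 of 8 were above 0. In this comparison 22.1% of all genes had an adjusted p of at most 0.05 (edgeR). How many of all genes separate these groups without overlap, as Pdgfra, Lum and Pi16 do below, was not counted.

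Pdgfra had 25.1 CPM in the lowest chow AKO library, a median of 38.9 and 44.4 in the highest. In HFD AKO libraries its lowest, median and highest values were 50.8, 56.8 and 68.6 CPM. Every HFD AKO library was above every chow AKO library. Its log2 fold change was 0.69 (SE 0.183, 95% interval 0.30 to 1.07, adjusted p = 0.0210 from edgeR), and the exact permutation test gave p = 0.00216. Its nominal p of 0.000991 lies next to the threshold. The call was lost with the RLE size factors (nominal p of 0.00106) and in 18 of the 24 fits that each left out 1 library, where the log2 fold change stayed between 0.60 and 0.74 and the adjusted p between 0.0108 and 0.0570 (edgeR). It was kept without chow AKO replicate 4 or 5 or HFD fl/fl replicate 1, 2, 4 or 5, and lost without any other single library.

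Lum, one of the 2 proteoglycans, had the widest difference of the members in the AKO mice. Its chow AKO libraries ran from 95.3 CPM through a median of 177 to 219 CPM. On HFD they ran from 229.8 through 333 to 394 CPM. The groups did not overlap (exact permutation test, p = 0.00216). The log2 fold change was 0.99 (SE 0.370, 95% interval 0.22 to 1.76, adjusted p = 0.0559 from edgeR). Lum was called (nominal p of 0.000313 from edgeR) when only the chow AKO and HFD AKO libraries were fitted, a fit that called 1388 of 14531 genes. Its neighbour Dcn stood at a median of 2092 CPM in chow AKO and 2396 CPM in HFD AKO libraries, with ranges of 1783 to 2470 and 1666 to 2703 CPM that overlap almost wholly (log2 fold change 0.11, 95% interval −0.26 to 0.47). The log2 ratio of Lum to Dcn within a library differed by 0.93 between these groups (exact permutation test, p = 0.00649, adjusted p = 0.104 over 24 tests of ratios).

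Pi16, a secreted protein of the early interstitial state, ran from 10.9 CPM through a median of 16.2 to 20.5 CPM on chow and from 20.8 through 22.2 to 27.0 CPM on HFD in the AKO mice. These groups touch without overlap, with the highest chow library just under the lowest HFD library (exact permutation test, p = 0.00216). The model gave a log2 fold change of 0.52 (SE 0.262, adjusted p = 0.143 from edgeR), which was not called. Dpp4, the peptidase of the same early cells, went the other way in its mean, from a median of 14.4 CPM on chow (9.87 to 26.3) to 11.4 CPM on HFD (8.22 to 19.6), and the groups overlap (log2 fold change −0.42, SE 0.295, adjusted p = 0.285 from edgeR). The log2 ratio of Dpp4 to Pdgfra was lower by −1.10 on HFD (exact permutation test, p = 0.0130), and that of Pdgfrb to Pdgfra by −0.54 (exact permutation test, p = 0.0108). Both had an adjusted p of 0.104 (permutation, 24 tests of ratios), and no ratio passed the adjustment.

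Ly6a and Cd34, the sorting antigens, were higher on HFD in most AKO mice. Ly6a ran from 129.8 through 178 to 242 CPM on chow and from 235 through 263 to 294 CPM on HFD, with 1 chow library inside the HFD range (log2 fold change 0.51, SE 0.213, adjusted p = 0.0833 from edgeR). Cd34, a sialomucin, ran from 99.4 through 112 to 148 CPM on chow and from 129 through 173 to 197 CPM on HFD, so the 2 highest chow libraries reach into the HFD range (log2 fold change 0.49, SE 0.199, adjusted p = 0.0757 from edgeR). Exact permutation tests gave p = 0.00649 for Ly6a and p = 0.0108 for Cd34. Pdgfrb stood at 38.1 CPM on chow (29.5 to 52.4) and 42.5 CPM on HFD (39.7 to 55.6) as the medians, with wide overlap (log2 fold change 0.15, 95% interval −0.24 to 0.54).

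**Figure D1:**
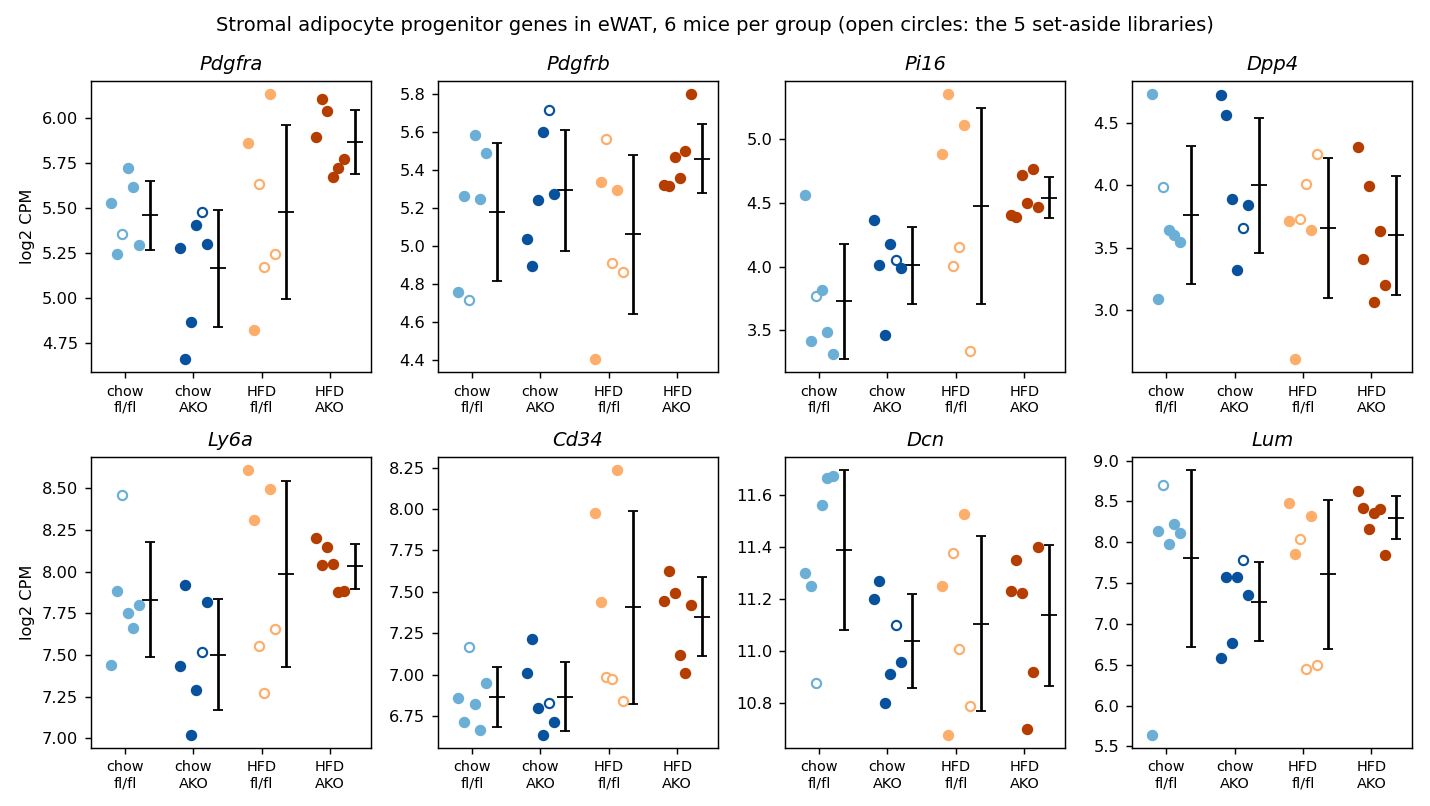
Log2 CPM of the 8 members (vertical axes, each gene on its own scale) in the 4 groups of 6 mice (horizontal axes), 1 point per library, with the group mean and SD as a bar to the right. Open circles are the 5 libraries that were also left out, and in Pdgfra, Pi16 and Lum all 6 HFD AKO points lie above all 6 chow AKO points. How many of all genes tested separate these groups in this way was not counted.

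In the fl/fl mice, diet gave no call with all 24 libraries: 0 of 8 members were called, where 0.173% of all genes tested were (26 genes). At an unadjusted p under 0.05 there were 2 members, Pi16 and Cd34, beside 9.01% of all genes, and the median log2 fold change was −0.01, beside −0.01 over all genes. Without the 5 libraries, 3 members were called higher on HFD, Pi16, Cd34 and Ly6a, where 11.8% of all genes were called. DESeq2 and limma-voom with all 24 libraries also called 0 members.

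Pi16 ran from 9.83 CPM through a median of 12.3 to 23.4 CPM in chow fl/fl libraries, and from 9.96 through 23.5 to 40.7 CPM in HFD fl/fl libraries. The highest chow value was replicate 1. On HFD replicates 1, 2 and 5 were at 29.3, 40.7 and 34.4 CPM while replicates 3, 4 and 6 were at 15.9, 17.7 and 9.96 CPM. The log2 fold change was 0.85 (SE 0.262, 95% interval 0.30 to 1.40, adjusted p = 0.448 from edgeR; exact permutation test, p = 0.0671). It was 1.34 without the 5 libraries (adjusted p = 0.000660 from edgeR). Single libraries decided the call. Pi16 was called without chow fl/fl replicate 1 (1.07, adjusted p = 0.157 from edgeR) and without HFD fl/fl replicate 6 (1.01, adjusted p = 0.246 from edgeR).

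Cd34 ran from 101 CPM through a median of 114 to 144 CPM on chow and from 114 through 150.1 to 301 CPM on HFD in fl/fl mice. The HFD group was split, with replicates 1, 2 and 5 at 251, 173 and 301 CPM above every chow library and replicates 3, 4 and 6 at 127, 125 and 114 CPM within the chow range. The log2 fold change was 0.64 (SE 0.199, adjusted p = 0.448 from edgeR; exact permutation test, p = 0.0498), and 1.11 without the 5 libraries (adjusted p = 0.000381 from edgeR). Without HFD fl/fl replicate 6 alone, Cd34 was called (0.74, adjusted p = 0.262 from edgeR).

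Ly6a showed the same division of the HFD fl/fl mice. Replicates 1, 2 and 5 had 391, 317.5 and 361 CPM and replicates 3, 4 and 6 had 188, 154 and 202 CPM, around a chow median of 219 CPM (173 to 352). Its log2 fold change was 0.20 with all libraries (SE 0.212, adjusted p = 0.791 from edgeR) and 0.76 without the 5 (adjusted p = 0.00381 from edgeR). Pdgfra, in contrast to its values in the AKO mice, had a median of 43.3 CPM on chow (37.7 to 52.6) and 43.6 CPM on HFD (28.1 to 69.9), a log2 fold change of 0.08 (95% interval −0.30 to 0.45). Lum ran from 49.9 through 280 to 415 CPM on chow and from 86.8 through 247 to 359 CPM on HFD. Its log2 fold change of −0.22 (95% interval −0.99 to 0.54) turned to 0.38 without the 5 libraries (adjusted p = 0.458 from edgeR). Pdgfrb, Dpp4 and Dcn had log2 fold changes of −0.11, −0.12 and −0.28 with overlapping groups, and none of the 3 was called with or without these libraries.

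**Figure D2:**
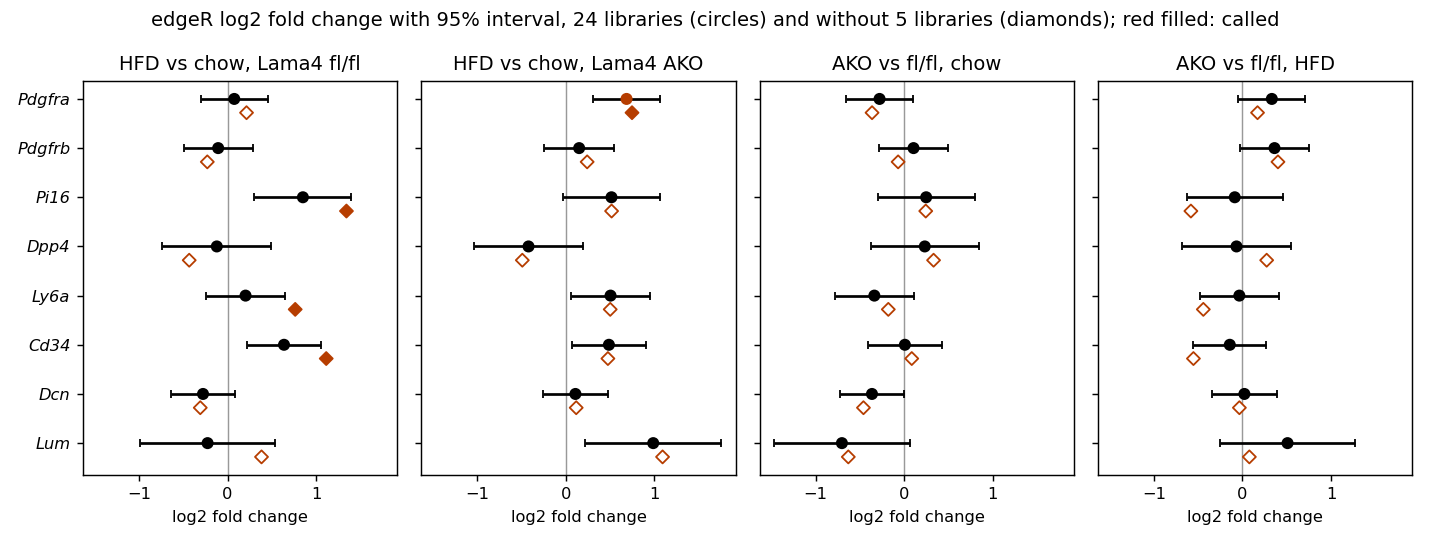
Log2 fold change (horizontal axes) of each member (vertical axis) in the 4 pairwise comparisons, circles with 95% intervals built from the SE of edgeR on 24 libraries and diamonds without the 5 libraries, filled red where called. Pdgfra in the AKO mice is the one red circle, and leaving out the 5 libraries moves Pi16, Ly6a and Cd34 to the right in the fl/fl mice, to 1.34, 0.76 and 1.11, while the AKO values stay near the circles.

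Whether the response to diet differed between the genotypes was tested as an interaction. None of 8 members was called, where 0.386% of all genes were. At an unadjusted p under 0.05 there were 2 (15.6% of all genes), Pdgfra and Lum, whose log2 fold change on HFD was higher in the AKO mice by 0.61 (SE 0.257, adjusted p = 0.278 from edgeR) and by 1.21 (SE 0.520, adjusted p = 0.281 from edgeR). Without the 5 libraries these differences were 0.53 for Pdgfra (adjusted p = 0.485 from edgeR) and 0.71 for Lum (adjusted p = 0.594 from edgeR), and neither had an unadjusted p under 0.05. Pi16 (−0.83, adjusted p = 0.275 from edgeR) and Cd34 (−0.64, adjusted p = 0.265 from edgeR) then did, in the opposite direction, so which members come forward in the interaction depends on these libraries. None was called in that fit either, where 0.68% of all genes were. The call of Pdgfra in the AKO mice therefore does not come with a tested difference from the fl/fl mice. Averaged over the genotypes, diet gave 0 of 8 calls beside 2.25% of all genes. Cd34 and Pi16 each missed 1 criterion: Cd34 had a log2 fold change of 0.56, below the fold of 1.5 (SE 0.141, nominal p of 0.000550, adjusted p = 0.0245 from edgeR), and Pi16 one of 0.68 with a nominal p of 0.00116 (SE 0.185, adjusted p = 0.0300 from edgeR). Pi16 was called by DESeq2, and both together with Ly6a were called without the 5 libraries, where 21.4% of all genes were called. Single libraries also decided these calls. Cd34 was called without chow fl/fl replicate 3, chow AKO replicate 2, HFD fl/fl replicate 3, 4 or 6, or HFD AKO replicate 4 or 5 (0.59 to 0.61), and Pi16 without chow fl/fl replicate 1 or HFD fl/fl replicate 3, 4 or 6 (0.72 to 0.79).

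Between the genotypes, no member was called on either diet, where 0.113% of all genes were called on chow and 0.173% on HFD. On chow, Dcn was the 1 member with an unadjusted p under 0.05, as were 5.85% of all genes. It ran from 1884 CPM through a median of 2770.2 to 3260.2 CPM in fl/fl and from 1783 through 2092 to 2470 CPM in AKO libraries. The 2 groups overlap in part, since 4 fl/fl libraries lie above the AKO range (log2 fold change −0.36, SE 0.176, 95% interval −0.73 to 0.0026, adjusted p = 0.852 from edgeR; exact permutation test, p = 0.0455). Lum had a log2 fold change of −0.70 on chow (95% interval −1.47 to 0.06). On HFD, 0 members had an unadjusted p under 0.05, beside 14.8% of all genes, and Pdgfra (0.33, 95% interval −0.05 to 0.71), Pdgfrb (0.36, 95% interval −0.03 to 0.75) and Lum (0.51, 95% interval −0.26 to 1.27) had the values farthest above 0. The other 5 lay between −0.14 and 0.02 on HFD, and DESeq2 and limma-voom called 0 members as well on both diets. Apart from Dcn, which was at −0.035 without the 5 libraries, these values near 0 rest on those libraries. Without them Cd34 (−0.55, adjusted p = 0.204 from edgeR), Ly6a (−0.44, adjusted p = 0.315 from edgeR) and Pi16 (−0.58, adjusted p = 0.325 from edgeR) were lower in AKO libraries on HFD with an unadjusted p under 0.05, and Dpp4 was at 0.27. Lum moved towards 0, from 0.51 to 0.08. No member was called on HFD in that fit, where 0.565% of all genes were. Averaged over diets, 0 of 8 were called, beside 0.0333% of all genes, and 0 had an unadjusted p under 0.05, beside 4.6% of all genes, while Ly6a did without the 5 libraries (−0.31, adjusted p = 0.618 from edgeR).

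From chow fl/fl to HFD AKO, the pair of groups that differs in both factors, 0 of 8 members were called where 2.1% of all genes were. Pi16 (0.76, adjusted p = 0.0731 from edgeR), Cd34 (0.49, adjusted p = 0.107 from edgeR) and Pdgfra (0.41, adjusted p = 0.137 from edgeR) had an unadjusted p under 0.05, as did 30.3% of all genes, and the exact permutation tests gave p = 0.0108, 0.00649 and 0.00649 in that order. Without the 5 libraries Pi16, Cd34 and Ly6a had an unadjusted p under 0.05 and Pdgfra did not, with 0 called. Pi16 was called in this comparison without chow fl/fl replicate 1 (0.98, adjusted p = 0.0504 from edgeR). These comparisons share groups with those above and are not independent of them. For Pdgfra, the order of the group medians was chow AKO, chow fl/fl, HFD fl/fl and HFD AKO at 38.9, 43.3, 43.6 and 56.8 CPM, and no neighbours in that order differed in the exact permutation test.

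The members did not rise and fall as 1 block among mice of the same group. After the mean of each group was subtracted, 1 of the 28 pairs of members was correlated over the 24 libraries at an adjusted p of at most 0.05 for Pearson's r: Ly6a and Cd34 (r = 0.748, rho = 0.710, permutation p = 0.00118 and 0.00188, adjusted p = 0.0330 and 0.0298). This was 0.717 without the 2 libraries farthest from the median of Ly6a and 0.382 without the 5 libraries, where it no longer passed, so the relation rests on those libraries. Pdgfrb and Dpp4 ran against each other (r = −0.582, rho = −0.620, permutation p = 0.00636 and 0.00213, adjusted p = 0.0594 and 0.0298). That r was −0.702 without the 2 farthest libraries. Pairs of members with like roles were weakly related: r was 0.139 for Pdgfra and Pdgfrb (permutation, adjusted p = 0.837), −0.0642 for Pi16 and Dpp4 (permutation, adjusted p = 0.886) and 0.181 for Dcn and Lum (permutation, adjusted p = 0.748).

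**Figure D3:**
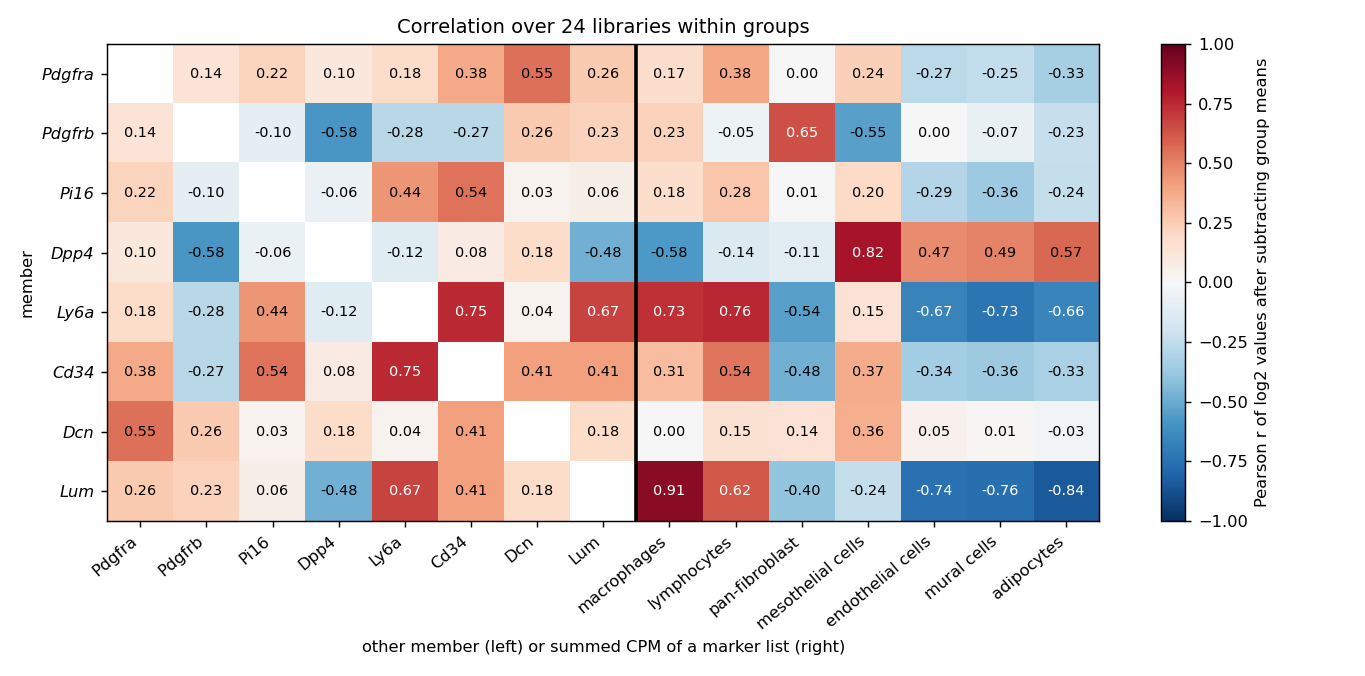
Pearson r over 24 libraries after subtracting group means, between members (left of the line) and between members and the summed CPM of marker lists of other cell types and of fibroblasts (right of the line), on a colour scale from −1 (blue) to 1 (red). Lum with the macrophage list, at 0.905, and Dpp4 with the mesothelial list, at 0.824, are the deepest reds, and Ly6a with Cd34, at 0.748, is the deepest among members.

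Marker lists of other cells, and a pan-fibroblast list for the stroma itself, were summed in each library to show what the members varied with. Of 56 pairs of a member and a list, 16 passed at an adjusted p of at most 0.05 (permutation, Pearson's r), 5 of them with Lum and more with Ly6a. Lum rose with the macrophage list (r = 0.905, rho = 0.752, permutation p = 9e-05, adjusted p = 0.00123) and fell with the adipocyte list (r = −0.841, rho = −0.661, adjusted p = 0.00123 by permutation). A separate low group on the macrophage list held 5 libraries, chow fl/fl replicate 1, chow AKO replicates 1 and 3 and HFD fl/fl replicates 4 and 6. Among the other 19, centred on their own group means, r was 0.398 with the macrophage list (permutation p = 0.0995) and −0.421 with the adipocyte list (permutation p = 0.0793), so the size of the pooled values rests on those 5. The 12 markers of the macrophage list summed to 2024 to 14098 CPM in chow fl/fl, 2859 to 10439 in chow AKO, 2867 to 15317 in HFD fl/fl and 8976 to 14726 CPM in HFD AKO libraries, and none of the 12 was at 0 in any library. In the AKO mice all 12 had a log2 fold change above 0 on HFD, with a median of 0.88 and 0 called (1 higher without the 5 libraries left out above), so the list moved in its mean with Lum, and its part in the difference of Lum was not tested.

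Dpp4 rose and fell with the 11 mesothelial markers (r = 0.824, rho = 0.786, permutation p = 1e-05, the smallest that 1e+05 permutations can give, adjusted p = 0.00056), and this r was 0.869 without the 5 libraries. Mesothelial cells line the surface of the fat pad. The list summed to 33.3 to 205 CPM in chow fl/fl, 38.6 to 233 in chow AKO, 29.5 to 127 in HFD fl/fl and 13.6 to 85.7 CPM in HFD AKO libraries, and 1 of its markers, Bnc1, was at 0 in 1 library. In the AKO mice, Msln, which encodes mesothelin, was called lower on HFD (log2 fold change −2.36, adjusted p = 0.0188 from edgeR), and 10 of the 11 were below 0. Dpp4 also rose with the adipocyte list (r = 0.572, rho = 0.529, adjusted p = 0.0305 by permutation) and fell with the macrophage list (r = −0.578, rho = −0.493, adjusted p = 0.0314 by permutation). The part of any of these cells in the values of Dpp4 was not tested.

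Ly6a rose with the lymphocyte list (r = 0.756, rho = 0.775, permutation p = 0.00011, adjusted p = 0.00123) and with the macrophage list (r = 0.730, rho = 0.663, adjusted p = 0.0116 by permutation), and it fell with the mural list (r = −0.733, rho = −0.696, adjusted p = 0.00938 by permutation). It also fell with the endothelial list (r = −0.668, adjusted p = 0.0129 by permutation), the adipocyte list (r = −0.658, adjusted p = 0.0265 by permutation) and the pan-fibroblast list (r = −0.541, adjusted p = 0.0326 by permutation). Without the 5 libraries that the earlier analysis set aside, r of Ly6a was 0.604 with the lymphocyte list and 0.596 with the macrophage list. Among the 19 libraries outside the low macrophage group, centred on their own group means, r with the lymphocyte list was 0.566 (permutation p = 0.00861). The 12 lymphocyte markers summed to 18.0 to 93.0 CPM in chow fl/fl, 19.2 to 202 in chow AKO, 11.9 to 206 in HFD fl/fl and 26.8 to 157 CPM in HFD AKO libraries, and Cd79a was at 0 in 5 libraries. In fl/fl mice all 12 were above 0 on HFD with a median log2 fold change of 0.94 and 0 called. Pdgfrb rose with the pan-fibroblast list (r = 0.648, rho = 0.554, adjusted p = 0.0106 by permutation) and fell with the mesothelial list (r = −0.546, rho = −0.609, adjusted p = 0.0301 by permutation). With the pan-fibroblast list, r of the other members lay between −0.541 for Ly6a, which passed, and 0.143 for Dcn, which did not. Neither Pdgfrb nor any other member rose with the mural list at an adjusted p of at most 0.05. Pdgfra, Pi16, Cd34 and Dcn passed with none of the 7 lists. These correlations were added after the data were seen.

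**Figure D4:**
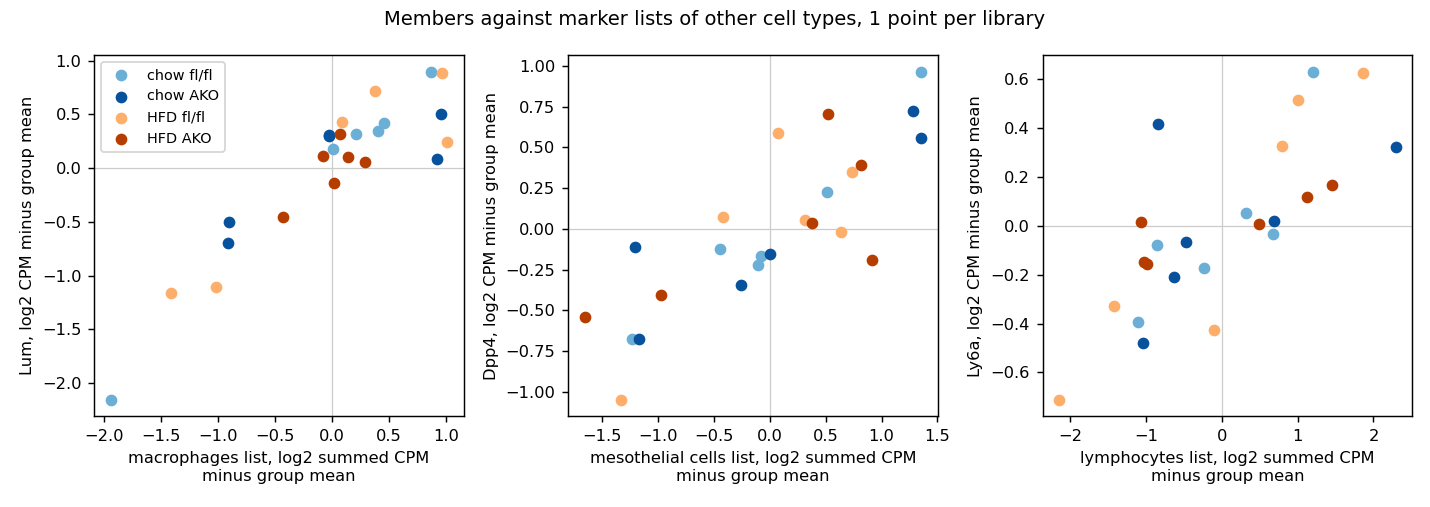
Log2 CPM of Lum, Dpp4 and Ly6a (vertical axes) against the log2 summed CPM of the macrophage, mesothelial and lymphocyte lists (horizontal axes), each minus the mean of its group, 1 point per library coloured by group. In the first panel 5 points lie apart at the lower left, and r is 0.398 among the other 19.

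The genes most like each member across the 24 libraries, by Pearson r after subtracting group means, were for Lum the genes Evi2a (0.982), H2az1 (0.964) and Pcna (0.963), of which Pcna is the sliding clamp of DNA replication. For Dpp4 they were Efemp1 (0.903), Chst4 (0.885) and Msln (0.874). Ly6a was closest to Ifitm3 (0.918), an interferon-induced membrane protein, Psmb10 (0.917), a subunit of the immunoproteasome, and Rps20 (0.911). Dcn was closest to Dpt (0.832) and Ogn (0.788), both matrix genes, and to Zfp84 (0.770), and Pdgfrb to Nes (0.842), Adam19 (0.835) and Mef2c (0.833). Pdgfra had Tet2 (0.825), Gm16523 (0.819) and Rsrp1 (0.818), Pi16 had Fbxo31 (0.803), Nbl1 (0.787) and Ypel3 (0.777), and Cd34 had Rbmx (0.888), Mageh1 (0.870) and Clasrp (0.855). Gm16523 is a predicted gene.

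Other genes of the same cells and pathways were counted from lists that were chosen with earlier results of these data known, so the counts describe the lists and do not test them. With all 24 libraries, the shares of all genes called between diets were 0.173% in fl/fl mice, 4.12% in AKO mice and 2.25% averaged over genotypes. The list counts that follow are to be read beside these shares. Of 15 tested genes of the interstitial progenitor state, the one marked by Pi16 and Dpp4, 2 were called higher and 2 lower on HFD in the AKO mice, with a median log2 fold change of 0.08, and 10 of the 15 had an adjusted p of at most 0.05 (edgeR), beside 22.1% of all genes. Cd248 (endosialin; 0.94, adjusted p = 0.0124 from edgeR) and Uchl1, a ubiquitin hydrolase (2.83, adjusted p = 0.0194 from edgeR), rose. Sema3c (−1.42), a secreted semaphorin, and Pcolce2 (−1.55), an enhancer of procollagen processing, fell, 2 genes picked with their values known. Averaged over genotypes, 3 of the 15 were called higher and 0 lower: Cd248 (0.72), Uchl1 (2.11) and Wnt2, a secreted Wnt ligand, whose level was 2.01 times that on chow. In fl/fl mice 0 of 15 were called, and without the 5 libraries 3 were higher and 0 lower, while in the AKO mice 4 were then higher and 4 lower. In the fits without the 5 libraries, 11.8% of all genes were called between diets in fl/fl and 15.7% in AKO mice, and the list counts without them are to be read beside these shares.

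Of the 14 committed preadipocyte genes tested, 0 were called between diets in either genotype (1 lower in each without the 5 libraries), 2 had an adjusted p of at most 0.05 in the AKO mice (edgeR), and Fabp4, the fatty acid binding protein of adipocytes, fell from chow fl/fl to HFD AKO (−1.43, adjusted p = 0.0380 from edgeR). The 11 genes of the F3-high regulatory stromal cells had 0 calls with a median log2 fold change of 0.64 in the AKO mice, where 6 had an adjusted p of at most 0.05 (edgeR), and without the 5 libraries 4 were higher and 2 lower there and 1 higher and 1 lower in fl/fl mice. Adam12, a metalloprotease, had the lowest p of that list (0.65 averaged over genotypes, adjusted p = 0.0313 from edgeR). Of 18 pan-fibroblast genes, 0 were called between diets in either genotype (without the 5 libraries 1 was higher in fl/fl and 2 in AKO mice), 3 had an adjusted p of at most 0.05 in the AKO mice (edgeR), and Col1a1, a chain of type I collagen, rose from chow fl/fl to HFD AKO (1.04, adjusted p = 0.0374 from edgeR). Among the ligands of the 2 PDGF receptors, Pdgfa, Pdgfb, Pdgfc and Pdgfd had log2 fold changes of −0.49, −0.16, −0.21 and 0.15 in the AKO mice and were not called. Of the 12 PDGF ligands and receptor partners, 1 was called lower, Pik3r1, the regulatory subunit of PI3 kinase (−1.72, adjusted p = 0.0124 from edgeR), and without the 5 libraries 2 were lower there and 1 in fl/fl mice. None of 10 other small leucine-rich proteoglycans was called between diets (1 higher in each genotype without the 5 libraries), with a median of 0.02 in the AKO mice, beside 0.99 for Lum and 0.11 for Dcn. Ogn, osteoglycin, had the lowest p among them (−0.61 from chow fl/fl to HFD AKO, adjusted p = 0.0604 from edgeR).

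The adipocyte list, which stands for the cells other than stroma that fill most of the depot, was lower on HFD in the AKO mice in its median. All 12 adipocyte markers were below 0 on HFD there, with a median log2 fold change of −1.14, and 1 was called lower, Lep (−2.10, adjusted p = 0.0170 from edgeR), the gene of leptin. Cfd, the gene of adipsin, fell from chow fl/fl to HFD AKO (−2.74, adjusted p = 0.0329 from edgeR). The list summed to 5842 to 21960.5 CPM in chow AKO and 4037 to 9562 CPM in HFD AKO libraries, and to 6176 to 30514 and 3988 to 22818 CPM in chow and HFD fl/fl libraries. The endothelial, mural and blood lists had 0 calls in the AKO mice with all libraries, and without the 5 libraries 5 adipocyte, 3 mural and 2 endothelial genes were called lower, each list having 12 genes, beside 15.7% of all genes called in that fit. The median was −0.67 for 12 endothelial genes (Cldn5 −1.23), −0.56 for 12 mural genes (Rgs5 −1.23) and −0.27 for 5 blood genes, of which Hbb-bt had the lowest p (−0.47 between genotypes on HFD). Cd68 in the macrophage list was at 1.46, and Cd79a in the lymphocyte list at 1.78 averaged over genotypes. Of 10 epididymis epithelium markers, 3 were in the table and 0 passed the filter. Whether shares of other cells take part in the differences of the members was not tested.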

How the data were processed

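QuantSeq libraries of eWAT RNA from 24 mice were analysed from 2 deposited tables. The authors made the raw counts per gene with the Lexogen QuantSeq pipeline 1.8.8 (mapping and counting, reads of 50 bases, RNA integrity numbers of 8 to 10 by their methods), and deposited them without normalization. In the second deposited table each library of counts is divided by 1 size factor, a normalized signal; R 4.0.3 and DESeq2 1.30 are named in the submitters' processing notes. It served here for symbols and coordinates, which 14067 of the 16730 genes have. The genome build is GRCm38 per the labels. Every gene in the tables has at least 72 counts in all.

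Counts were fitted in R 4.3.3 with edgeR 4.0.16: TMM factors, genes with 1 CPM in 3 libraries, 1 coefficient per group, all 24 libraries. The call rule is that of the study's methods. Log2 CPM had a prior count of 2. Ratios between members were compared in 24 exact permutation tests, and correlations within groups with 1e+05 permutations. The script was tested on simulated counts. Alternatives were limma-voom (limma 3.58.1), DESeq2 1.42.0, RLE size factors, CPM without TMM factors, a prior count of 0.5, no filter, filterByExpr, an adjusted p of 0.05 as the criterion, no fold criterion, a block for the replicate number, fits restricted to the compared groups, 5 libraries left out together, and each library left out in turn. Correlations with marker lists were added after seeing the data.

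Named genes were the 8 members, from each list the called genes with the lowest p in any of the 8 comparisons (at most 3, or the 1 gene with the lowest p where none was called), the 3 genes most like each member, and Lama4. Outside this rule, Sema3c and Pcolce2 were picked with their values known, the ligands Pdgfa, Pdgfb, Pdgfc and Pdgfd were named, and Bnc1 was named for its count of 0. The members and lists were chosen with earlier results of these data known. The 60 pairs of libraries within groups differed by more than counting error (chi-square of 5.62 or more per degree of freedom), and each was kept as 1 mouse. A count of 0 allows up to 3 counts of a library's total, and limits of this kind cover counting error only. Replicates are separate mice.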

Additional observations from a re-analysis of the deposited data

Results flagged for a closer look

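In 3 of the 32 sets of 6 libraries (8 members in 4 groups), 1 library lay far from the others by Dixon's ratio of its gap to the range, which chance alone exceeds in about 1 of 20 sets. Lum in chow fl/fl replicate 1 was at 5.65 log2 CPM, with the next library at 7.98 (ratio 0.765, against a limit of 0.625). Dpp4 in HFD fl/fl replicate 2 was at 2.61 log2 CPM, with the next at 3.64 (ratio 0.628). Pdgfrb in HFD AKO replicate 6 was at 5.80 log2 CPM, with the next at 5.50 (ratio 0.626).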

How the results depend on the processing

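The number of members called between diets depended on the libraries used. Without the 5 libraries that an earlier analysis set aside it was 3 in fl/fl mice (11.8% of all genes) and 3 averaged over genotypes (21.4% of all genes). There, 18 of 40 permutation tests had p of at most 0.05 in place of 10. In the AKO mice the number of members called was 0 with RLE size factors (629 of 15020 genes called) and 2 in the fit of only the groups compared. That restricted fit called 1388 of 14531 genes, beside 619 of 15020 with all 24 libraries. Averaged over genotypes the number of members called was 1 with an adjusted p of at most 0.05 as the criterion, 1 with no fold criterion and 1 with DESeq2. With 1 library left out in turn it lay between 0 and 2 in fl/fl mice, 0 and 1 in the AKO mice, 0 and 1 from chow fl/fl to HFD AKO and 0 and 2 averaged over genotypes, and between 0 and 3 pairs of members were correlated at an adjusted p of at most 0.05. The cause was not tested.

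Signs turned only among log2 fold changes that were not called. Without the 5 libraries Lum was at 0.38 between diets in fl/fl mice, Dpp4 at 0.27 and Dcn at −0.035 between genotypes on HFD, Pdgfrb at −0.068 between genotypes on chow, and Ly6a at −0.26 in the interaction, and the correlations of Pi16 with Dpp4 and of Pdgfra with Pdgfrb were 0.405 and −0.048. Between genotypes on HFD, limma-voom gave 0.052 for Pi16 and 0.057 for Ly6a, and Dcn was at −0.0011 with DESeq2, −0.0011 with RLE size factors and −0.017 in the fit of only the groups compared. The labels give no pairing of mice by replicate number, and correlations between libraries cannot decide whether there was one. Of same-numbered pairs of libraries, 15 of 36 had a correlation over 0.1, with a median of 0.00112 and a range from −0.534 to 0.714. Among other pairs 58 of 180 did, with a median of −0.0105. With the number as a block, Pi16 was at 0.0092 between genotypes on HFD and Cd34 at −0.013 between genotypes on chow, Pdgfra stayed called in the AKO mice, and the other counts of members called stayed at 0.

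Leaving out 1 library in turn gave ranges that cross 0 for Pdgfra (−0.064 to 0.19), Pdgfrb (−0.19 to 0.0026) and Dpp4 (−0.25 to 0.14) between diets in fl/fl mice. Between genotypes on HFD they were −0.25 to 0.11 for Pi16, −0.25 to 0.062 for Dpp4, −0.15 to 0.10 for Ly6a, −0.26 to 0.039 for Cd34 and −0.054 to 0.10 for Dcn. For Cd34 they were −0.069 to 0.075 between genotypes on chow and −0.27 to 0.027 in the interaction, and for the correlation of Pi16 with Dpp4 −0.311 to 0.195. Without TMM factors the median of all genes moved by up to 0.12 (chow fl/fl to HFD AKO). Depth limits Pi16 and Dpp4 most, with as few as 96 and 73 counts in a library.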
